A study of Rattus norvegicus with 4 samples.

Results

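The comparison set rat hippocampal neural progenitor cells kept with KHS101 at 1.7 uM against cells kept with the solvent dimethyl sulfoxide (DMSO). Its members were all 14217 genes that a probe set of the Affymetrix rat array names singly, which are also all the named genes of the series. Where several probe sets name a gene, the one with the highest mean over the 4 arrays stood for it. Of the 4 arrays in the series, 2 entered the comparison, 1 on each side. KHS101 is a small molecule, and the series title concerns a compound that speeds up neuronal differentiation in adult rats; the comparison asks which genes differ at the lower of the 2 concentrations studied.

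All cells came from Fisher 344 rats and were labelled as hippocampal progenitors. One group received KHS101 at 1.7 uM and the control group DMSO; the other arrays held KHS101 at 5 uM and retinoic acid at 1 uM with forskolin, an activator of adenylyl cyclase. The general protocol of the series describes early-passage cells seeded at 1000 per square centimetre in N2 medium, treated for 4 days, with DMSO at 0.1%. It does not say how many animals or dishes gave each RNA. With 1 array a group, the differences below have no replicate to check them against and none was tested; so few arrays limit how precise any value can be.

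Hippocampal progenitors divide in culture and can form neurons, astrocytes or oligodendrocytes. Cells short of amino acids, or with misfolded protein or failing mitochondria, switch on the integrated stress response: phosphorylation of the initiation factor eIF2 slows most translation but favours that of the transcription factor Atf4, whose targets import and make amino acids and charge tRNAs. Entry into S phase depends on E2F transcription factors, which drive the genes of the replication machinery and are held back by retinoblastoma proteins until cyclin-dependent kinases act on those.

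Values are given as log2 expression values per array, so a difference of 1 is 2-fold. Values below 5, where such arrays carry little specific signal, were raised to that floor. Of the named genes, 8533 were above the floor on 1 or both arrays and are called measured: 8308 on both, 144 only with KHS101 and 81 only in DMSO. A gene counted as higher or lower at 2-fold or more, and where 1 array was at the floor the fold is a lower bound. A single probe set's difference had a standard deviation of 0.21, taken from the 3061 other probe sets above the floor that name the same genes. These share the RNA and the array and show probe noise only. Of them, 168 name genes counted as higher or lower. There the widest gap from the probe set that stood for the gene was -1.85, for Tdrp, so 0.21 does not bound the error of such genes.

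With KHS101 at 1.7 uM, 372 of the 8533 measured genes were higher (4.36%) and 364 were lower (4.27%). Counts in the gene lists below stand beside these shares, and in a short list a count of 0 or 1 says little. The median of all measured genes was -0.01, and 78.9% of them lay within 1.5-fold. The upper side reached further: 88 genes were higher by 4-fold or more and 26 by 8-fold or more, against 20 and 1 lower. Genes that were higher had a median level of 7.17 in DMSO and 8.92 with KHS101, and those that were lower 9.45 and 8.11. The DMSO value enters the call, so its level in called genes is partly set by the selection. In RNA from a whole culture, fewer cells of a type and less RNA per cell cannot be told apart. At the threshold, Csrnp1 (1.0005), Mlxip (1.0031) and Efemp2 (1.0042) were just inside on the upper side, and Gnpda1 (0.9979) was just outside. On the lower side Rnd2 (-1.0004) and Rpa3 (-1.0037) were just inside and Kif14 (-0.9976) just outside. Of the 134 called genes with another probe set above the floor, 168 other probe sets gave the same direction in 167 cases, passed 2-fold in 123 and passed it the other way in 0. Other probe sets at the floor on both arrays were left out, and one could enter through the array where the gene is high. The count therefore cannot show how often a second probe set saw no difference.

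**Figure D1:**
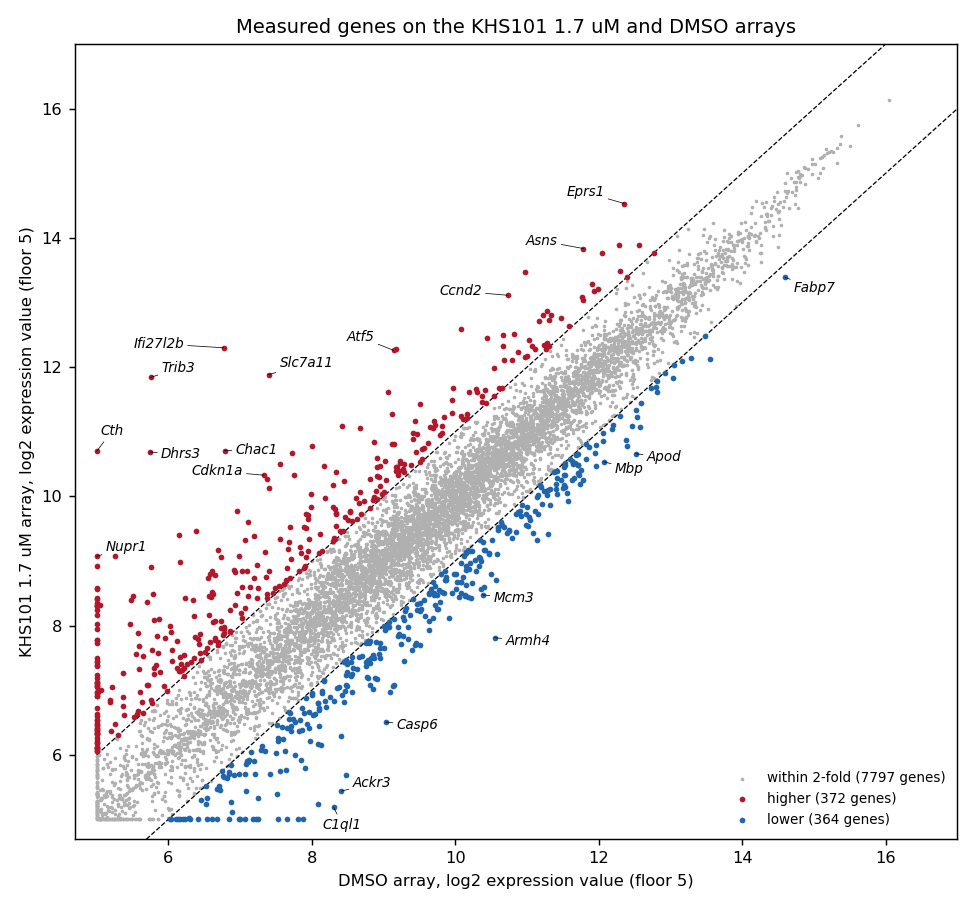
Log2 expression value of each measured gene on the DMSO array (x axis) and on the KHS101 1.7 uM array (y axis), 1 point a gene, with 2-fold lines dashed and named examples marked. The 372 higher genes (red) reach further from the diagonal than the 364 lower genes (blue).

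The labelled cell type was set against defining markers. The 4 progenitor markers on the array were above the floor in all 4 groups: Nes was 11.97 with KHS101 at 1.7 uM and 11.36 in DMSO, Sox2 was 13.82 and 14.01, Vim 14.55 and 14.53, and Fabp7 13.39 and 14.59. The 5 oligodendrocyte lineage markers were above the floor in all groups as well, among them Olig2 at 10.25 with KHS101 and 11.08 in DMSO. Their summed linear level was 25100 with KHS101 at 1.7 uM, 38520 in DMSO, 16750 at 5 uM and 49770 in the retinoic acid and forskolin group. In the same order of groups the progenitor sum was 53200, 67450, 39590 and 61880, also below DMSO on both KHS101 arrays. The astrocyte sum was 11200, 9247, 10410 and 19070, and the neuronal sum 7451, 6277, 7090 and 8251. Of the astrocyte markers S100b was detected, whereas Gfap, Aqp4, Gja1 and Slc1a2 were at the floor on every array. The neuronal markers Tubb3, Syp and Map2 were detected, and Dcx, Rbfox3 and Snap25 were at the floor. None of 5 fibroblast and meningeal, 4 endothelial, 5 microglial and 3 ependymal markers was above the floor with KHS101 at 1.7 uM or in DMSO. The gap between 3' and 5' probe sets, a sign of RNA quality, was 1.40 for beta-actin with KHS101 and 1.26 in DMSO, 0.80 and 0.69 for hexokinase, and -0.14 and -0.16 for Gapdh; its part in the results was not tested. Of 12 common reference genes, 0 were called, with a median of -0.03. Tfrc, the transferrin receptor, was the one of these with the widest gap, 10.28 with KHS101 and 11.19 in DMSO.

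Genes of the integrated stress response had the highest median of the lists with 8 or more measured genes. Of 22 measured transcription factors and feedback genes of this pathway, 16 were higher and 0 lower, with a median of 1.69 beside -0.01 over all measured genes. Atf4, the factor at its centre, was at 13.77 with KHS101 at 1.7 uM, 12.04 in DMSO, 13.99 at 5 uM and 11.73 in the retinoic acid and forskolin group. Both KHS101 arrays were above both others, and the 1.7 uM array was 3.32-fold above DMSO. Its partners were higher as well. Ddit3, the factor known as CHOP, was at 12.59 against 10.08 in DMSO, 5.74-fold higher, with 13.68 at 5 uM and 10.46 in the retinoic acid and forskolin group. Atf5, a related bZIP factor, was at 12.26 against 9.14, 8.68-fold higher, with 12.66 and 9.22 on the other arrays. Cebpb, which pairs with Atf4 on DNA, was at 8.09 against 5.79, 4.90-fold higher, and stood at 9.65 at 5 uM. Atf3 was at the floor in DMSO and with retinoic acid and forskolin and at 8.30 with KHS101, at least 9.86-fold higher.

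Among feedback and effector genes of the pathway, Trib3, a pseudokinase that binds and restrains Atf4, was at 11.84 with KHS101 at 1.7 uM, 5.75 in DMSO, 12.84 at 5 uM and 6.48 in the retinoic acid and forskolin group. This 68.0-fold difference was the widest of all genes above the floor on both arrays; another of its probe sets gave 4.68 on the log2 scale instead of 6.09. Chac1, which degrades glutathione, was at 10.71 against 6.78, 15.2-fold higher, with 11.27 at 5 uM and 5.81 in the retinoic acid and forskolin group. Nupr1, a small chromatin protein of stressed cells, was at 9.07 with KHS101 and at the floor in DMSO, at least 16.8-fold higher. Sesn2, a sestrin that restrains mTORC1 when leucine is short, was 6.85-fold higher (10.77 against 7.9976). Ppp1r15a, the phosphatase subunit that ends the response by dephosphorylating eIF2, was 4.93-fold higher (7.88 against 5.58), and Ddit4, another mTORC1 inhibitor, 3.15-fold (12.33 against 10.67).

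**Figure D2:**
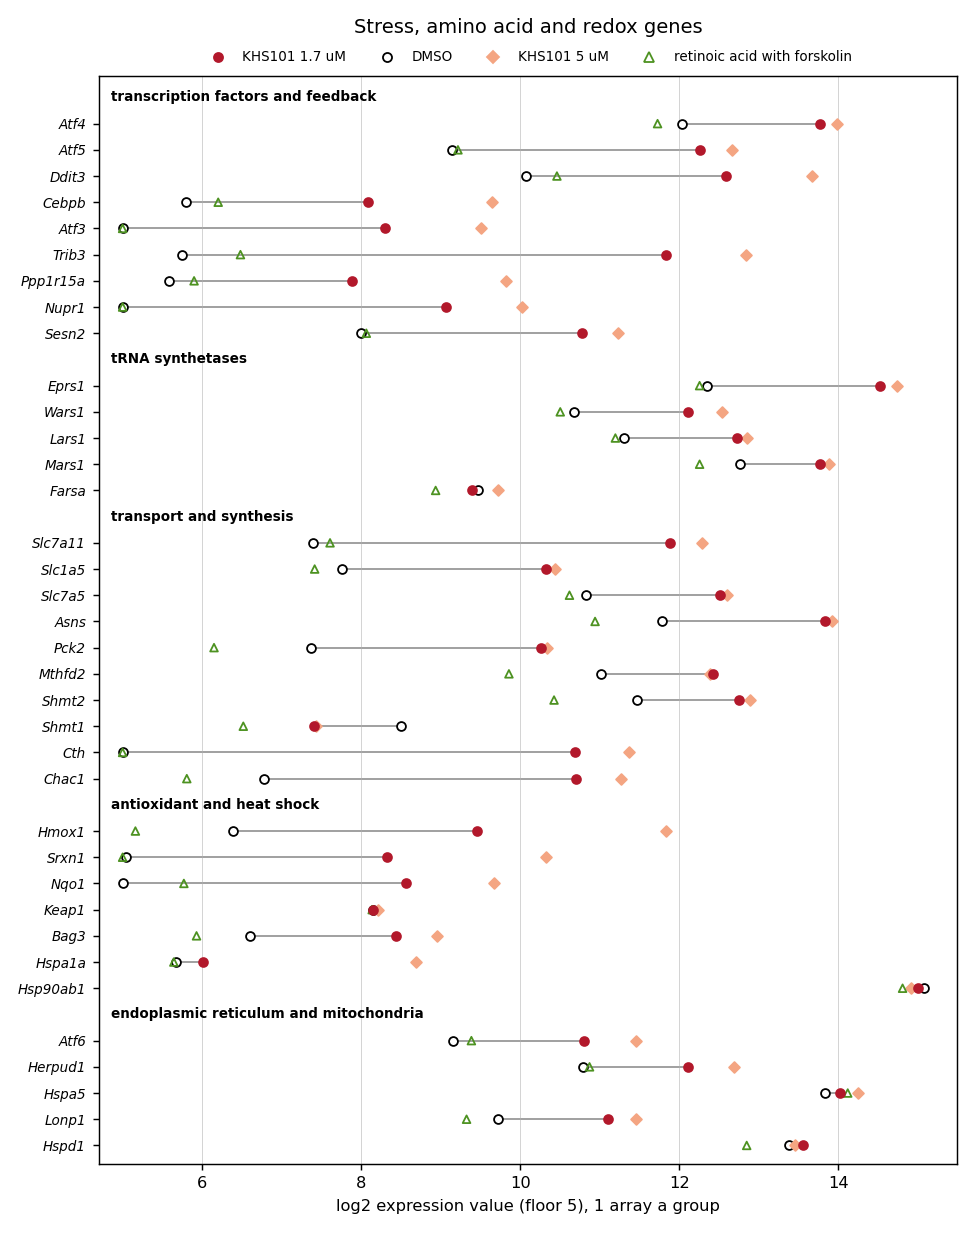
Log2 expression values (x axis, floor 5) of stress, amino acid and redox genes on each array, 1 point an array, with a line joining the KHS101 1.7 uM array (filled circle) to DMSO (open circle). Trib3 and Cth had the longest lines, while Keap1, Farsa, Hsp90ab1 and Hspd1 had DMSO and 1.7 uM points close together.

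Of 19 measured cytosolic aminoacyl-tRNA synthetases, 8 were higher and 0 lower (median 0.85); of 10 mitochondrial ones, 0 were higher and 0 lower (median 0.30). Eprs1, which charges glutamate and proline tRNAs, was at 14.53 with KHS101 at 1.7 uM, 12.35 in DMSO, 14.74 at 5 uM and 12.26 in the retinoic acid and forskolin group, 4.53-fold higher. Wars1 for tryptophan was 2.71-fold higher (12.11 against 10.68), Lars1 for leucine 2.67-fold (12.73 against 11.31) and Mars1 for methionine 2.01-fold (13.77 against 12.76). Cars1 for cysteine was 2.13-fold higher (11.20 against 10.11) and was below 2-fold when its probe sets were averaged. The subunits of the phenylalanine enzyme differed from each other: Farsb was at 12.05 against 11.21 and Farsa at 9.39 against 9.47. The widest gap among the mitochondrial enzymes was that of Fars2, 8.74 against 7.82.

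Promoter sequence was not used in the calls, and several short elements were searched in it, 1 given here and the others further below. The element bound by C/EBP and ATF dimers, TGATGNAA on either strand, was searched in RefSeq windows of 300 bases around gene starts in build GRCr8, 250 before and 50 after. It was present in 3.98% of all 33469 windows, in 1.89% of the 7237 measured genes with a window, in 6.76% of 296 higher genes (20) and in 1.03% of 292 lower genes (3). By list it was found in 7 of 17 cytosolic synthetases, 5 of 19 stress factors and feedback genes, 3 of 13 amino acid transporters and 0 of 10 mitochondrial synthetases. In the sequences below, 5' to 3' along the gene's own strand, capitals mark the element. The first pair is given over the whole 250 bases before the start, Trib3 at chr3:161275534-161275783 (- strand) with the element 21 bases before the start and Chac1 at chr3:126795881-126796130 (+ strand) with it 167 bases before. The others are given with up to 40 bases on each side: Nupr1 at chr1:190645909-190645996 (- strand), Mars1 at chr7:65023754-65023810 (- strand) and Slc38a1 at chr7:129681496-129681583 (- strand).
Trib3: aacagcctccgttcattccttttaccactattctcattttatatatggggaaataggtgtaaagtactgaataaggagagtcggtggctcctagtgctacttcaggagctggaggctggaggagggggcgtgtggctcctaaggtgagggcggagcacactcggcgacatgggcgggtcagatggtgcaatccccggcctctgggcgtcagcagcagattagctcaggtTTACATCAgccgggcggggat
Chac1: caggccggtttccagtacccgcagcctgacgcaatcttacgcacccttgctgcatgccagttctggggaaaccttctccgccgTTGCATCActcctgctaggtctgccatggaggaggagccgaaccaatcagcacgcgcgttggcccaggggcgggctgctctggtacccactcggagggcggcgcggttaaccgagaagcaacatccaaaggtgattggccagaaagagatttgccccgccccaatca
Nupr1: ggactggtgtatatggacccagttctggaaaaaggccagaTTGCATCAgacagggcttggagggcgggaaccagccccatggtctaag
Mars1: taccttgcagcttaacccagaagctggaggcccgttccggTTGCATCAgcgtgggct
Slc38a1: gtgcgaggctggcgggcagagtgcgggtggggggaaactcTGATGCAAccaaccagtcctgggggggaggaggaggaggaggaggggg
Trib3, Chac1, Nupr1 and Mars1 carry the element on the opposite strand, read here as TTACATCA or TTGCATCA, and Slc38a1 carries it in the forward direction as TGATGCAA. Yars1 and Cars1, both higher, hold it just after the start, 38 and 17 bases in. The windows of Atf5, Asns, Slc7a11 and Cth do not contain these letters, which says nothing of the factors that bind them.

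Of 18 measured amino acid transporters 8 were higher and 0 lower (median 0.74). Slc7a11, which brings in cystine in exchange for glutamate, was at 11.88 with KHS101 at 1.7 uM, 7.40 in DMSO, 12.28 at 5 uM and 7.61 in the retinoic acid and forskolin group, 22.4-fold higher. Slc3a2, the heavy chain it needs at the membrane, was 3.04-fold higher (13.89 against 12.29), and Slc7a5, which pairs with the same chain to import leucine, 3.22-fold (12.51 against 10.82). The neutral amino acid carriers Slc1a5 and Slc1a4 were 5.95-fold (10.33 against 7.75) and 3.27-fold higher (9.65 against 7.94). Slc6a9, a glycine transporter, was 2.84-fold higher (9.18 against 7.67). Slc38a1, whose promoter is shown above, was 3.50-fold higher (9.73 against 7.92) on its brightest probe set and below 2-fold on the mean of its probe sets. The glutamate carriers in the list lay on the other side of DMSO, Slc1a3 at 9.20 against 9.72 and Slc1a1 at 10.42 against 11.09.

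Enzymes that make amino acids and one-carbon units were called less evenly: 4 of 19 were higher and 1 was lower (median 0.22). Asns, asparagine synthetase, was at 13.83 with KHS101 at 1.7 uM, 11.79 in DMSO, 13.92 at 5 uM and 10.94 in the retinoic acid and forskolin group, 4.14-fold higher. Aldh18a1, which starts proline synthesis, was 2.90-fold higher (12.71 against 11.17). In the folate cycle the mitochondrial enzymes Mthfd2 and Shmt2 were 2.64-fold (12.42 against 11.02) and 2.44-fold higher (12.76 against 11.47), the mitochondrial Mthfd1l was within 2-fold (10.54 against 9.70), and the cytosolic Shmt1 was 2.13-fold lower (7.41 against 8.50). The serine pathway enzymes Phgdh, Psph and Psat1 lay within 2-fold, at 14.03 against 13.10, 13.14 against 12.24 and 13.99 against 13.54. Outside the lists, Pck2, the mitochondrial phosphoenolpyruvate carboxykinase, was 7.45-fold higher (10.27 against 7.37), with 10.33 at 5 uM and 6.15 in the retinoic acid and forskolin group.

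Cysteine and antioxidant genes included the widest bound. Of 21 genes of cysteine supply and glutathione turnover, 3 were higher and 2 lower (median 0.08). Cth, which makes cysteine from cystathionine, was at 10.70 with KHS101 at 1.7 uM and 11.37 at 5 uM and at the floor on both other arrays, so it was at least 51.8-fold higher. Mgst1, a membrane glutathione transferase, was at least 8.17-fold higher (8.03 against the floor). Cdo1, which oxidises cysteine away, was 2.40-fold lower (8.26 against 9.52), and Glrx, glutaredoxin, 2.30-fold lower (8.09 against 9.29). Among 26 genes of the NRF2 antioxidant response and heme breakdown, 7 were higher and 0 lower, with a median of 0.10: few members differed widely and most did not. Hmox1, heme oxygenase, was at 9.46 against 6.39, 8.40-fold higher, with 11.83 at 5 uM and 5.16 in the retinoic acid and forskolin group. Srxn1, sulfiredoxin, was 9.66-fold higher (8.32 against 5.05) and Nqo1, a quinone reductase, at least 11.8-fold (8.57 against the floor). Nfe2l2, which encodes NRF2, was 2.32-fold higher (10.25 against 9.03), and Keap1, its inhibitor, was at 8.15 on both arrays. The core of the antioxidant response element, TGACNNNGC on either strand, was in 16.9% of the higher genes' windows, 14.4% of the lower genes' and 15.6% of all measured genes' windows.

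Of 25 cytosolic heat shock proteins and co-chaperones, 2 were higher and 0 lower (median 0.02): Bag3, a co-chaperone of selective autophagy, 3.59-fold (8.44 against 6.60), and Hspa4l 2.61-fold (11.23 against 9.85). Hspa1a, the inducible HSP70, was at 6.02 with KHS101 at 1.7 uM and 5.67 in DMSO, with 8.69 at 5 uM. Of 29 endoplasmic reticulum genes 4 were higher (13.8%, beside 4.36% of all measured genes) and 0 lower (median 0.12). Herpud1, which feeds proteins to degradation, was 2.49-fold higher (12.11 against 10.80), Edem1, a lectin of the same route, 2.58-fold (12.24 against 10.87) and the adaptor Sel1l 2.03-fold (8.85 against 7.82). The sensor gene Atf6 was 3.15-fold higher (10.81 against 9.15) on its brightest probe set and below 2-fold on their mean. The chaperones Hspa5, Hsp90b1 and Calr lay within 2-fold, at 14.03 against 13.84, 14.06 against 14.12 and 12.25 against 12.56. Of 18 mitochondrial chaperones and proteases 2 were higher (11.1%), with a median of 0.18, the protease Lonp1 at 2.599-fold (11.10 against 9.72) and Hspa9 at 2.32-fold (13.20 against 11.99); both calls ended when probe sets were averaged. Hspd1 was at 13.56 against 13.38. Of 29 autophagy and lysosome genes 3 were higher and 0 lower: the protease Ctsl at 2.39-fold (12.33 against 11.07), and the transcription factor Tfe3 and the receptor Sqstm1, whose calls of 2.08-fold and 2.07-fold were lost with averaged probe sets.

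None of 36 proteasome subunits, 40 cytosolic ribosomal proteins, 40 ribosome biogenesis factors or 72 respiratory chain subunits was called in either direction, and their medians were -0.13, 0.14, 0.04 and -0.06. The same held for 29 genes of cholesterol and fatty acid synthesis (median 0.15). Myc, a driver of ribosome production, was at 11.73 with KHS101 at 1.7 uM and 12.02 in DMSO. Energy genes were called singly: 4 of 25 glycolysis genes were higher and 1 lower (median 0.07). Pfkfb3, whose product activates phosphofructokinase, was 7.67-fold higher (10.67 against 7.73), with 11.70 at 5 uM and 9.24 in the retinoic acid and forskolin group; another of its probe sets differed by 1.34 on the log2 scale. Gys1, glycogen synthase, was 3.46-fold higher (9.34 against 7.55). Txnip, which restrains glucose uptake, was at the floor on both KHS101 arrays and at 7.81 in DMSO, at least 7.02-fold lower, with 8.78 under retinoic acid and forskolin. Of 28 hypoxia genes and ARNT partners, 4 were higher (14.3%) and 1 lower (3.57%, again near the share of all measured genes), with a median of 0.09. Vegfa was 6.67-fold higher (10.13 against 7.40) and Bhlhe41, a circadian repressor, 4.38-fold (8.78 against 6.65). Hif1a was at 13.09 and 13.08, and Arnt at 6.69 and 6.75. Tacc3, which binds ARNT and works at the mitotic spindle, was 2.39-fold lower (10.03 against 11.28) and less than 2-fold lower with averaged probe sets.

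**Figure D3:**
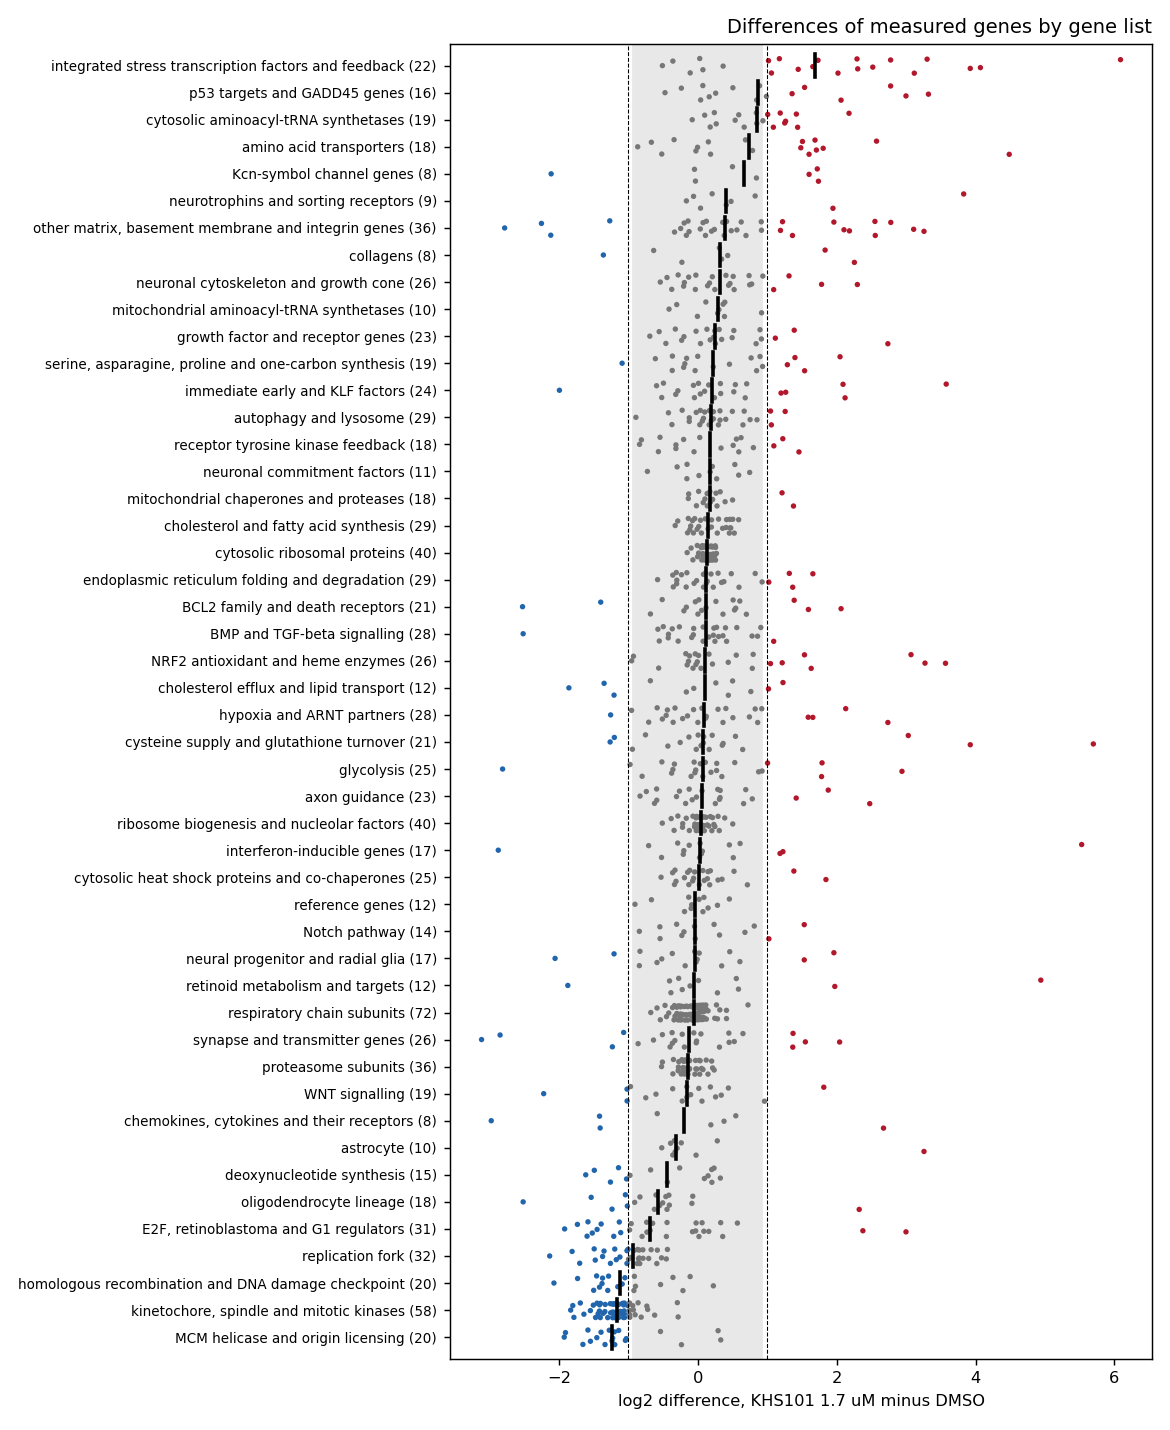
Log2 difference of each measured gene, KHS101 1.7 uM minus DMSO (x axis), for the gene lists with 8 or more measured genes, whose number stands in brackets; black bars are medians, dashed lines 2-fold, and the grey band holds the middle 90% of all measured genes. The stress list has its median at 1.69, and the 4 lists of licensing, mitosis, recombination and the replication fork have theirs between -1.23 and -0.94. Genes can stand in several lists.

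Cell cycle genes were lower across several lists. Among regulators of G1 and the E2F family, 2 of 31 genes were higher and 10 lower (median -0.69). Cdkn1a, the p21 inhibitor of cyclin-dependent kinases, was at 10.33 with KHS101 at 1.7 uM, 7.33 in DMSO, 10.87 at 5 uM and 7.69 in the retinoic acid and forskolin group, 7.99-fold higher. Ccnd2, cyclin D2, was at 13.11 against 10.73, 5.20-fold higher, with 12.92 and 12.51 on the other arrays; all 3 treated arrays were thus above DMSO. Cdkn1c, the p57 inhibitor, went the other way, 2.73-fold lower (6.37 against 7.82), with 5.28 at 5 uM and 9.91 under retinoic acid and forskolin.

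Of the E2F genes, the activators E2f1 and E2f2 were 3.02-fold (6.97 against 8.56) and 2.99-fold lower (8.11 against 9.70). The atypical repressors E2f7 and E2f8 were 2.87-fold (8.63 against 10.15) and 3.78-fold lower (6.17 against 8.09). The repressors E2f4, E2f5 and E2f6 were within 2-fold, at 8.46 against 8.40, 10.11 against 10.84 and 9.05 against 9.03. Mybl2, a target of E2F and a driver of mitotic genes, was 3.33-fold lower (7.72 against 9.46).

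Of 20 origin licensing genes 16 were lower and 0 higher, with a median of -1.23. Mcm3, part of the MCM ring that unwinds DNA, was at 8.47 with KHS101 at 1.7 uM, 10.38 in DMSO, 6.67 at 5 uM and 9.22 in the retinoic acid and forskolin group, 3.75-fold lower. The DMSO array was the highest of the 4 and the 5 uM array the lowest. Its partners were lower by less: Mcm5 2.74-fold (9.87 against 11.32), Mcm4 2.63-fold (10.14 against 11.53), Mcm2 2.34-fold (10.49 against 11.71) and Mcm6 2.30-fold (11.83 against 13.04). Orc1, of the origin recognition complex, was 3.79-fold lower (5.92 against 7.85) and Mcm10 2.92-fold (7.79 against 9.34). Gmnn, geminin, which blocks a second round of licensing, was 2.52-fold lower (10.41 against 11.75) and less than 2-fold lower with averaged probe sets.

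The promoters of these genes were searched for the E2F site in its forms TTTCGCGC and TTTGGCGC, on either strand, in the same windows. Of all windows 0.79% held 1 or both forms, as did 1.77% of the 7237 measured genes, 0 of 296 higher genes and 6.85% of 292 lower genes (20). The site was in 9 of 16 licensing genes and 9 of 31 replication fork genes with a window, against 2 of 49 kinetochore and spindle genes. Capitals mark it in the sequences below, where a forward and a reverse match often overlap by 4 bases, so that matches on opposite strands are not separate sites. Mcm5 (chr19:13488563-13488812 (+ strand)) and Mcm6 (chr13:42404353-42404602 (- strand)) are given over the 250 bases before the start; Mcm2 (chr4:122918095-122918148 (- strand)), Mcm7 (chr12:22163183-22163270 (- strand)) and Gins1 (chr3:160184855-160184919 (+ strand)) with up to 40 bases on each side.
Mcm5: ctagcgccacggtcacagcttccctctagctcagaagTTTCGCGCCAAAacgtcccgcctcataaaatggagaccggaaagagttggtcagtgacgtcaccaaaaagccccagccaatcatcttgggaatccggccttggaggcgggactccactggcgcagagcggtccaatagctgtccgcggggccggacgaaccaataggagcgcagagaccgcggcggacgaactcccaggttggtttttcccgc
Mcm6: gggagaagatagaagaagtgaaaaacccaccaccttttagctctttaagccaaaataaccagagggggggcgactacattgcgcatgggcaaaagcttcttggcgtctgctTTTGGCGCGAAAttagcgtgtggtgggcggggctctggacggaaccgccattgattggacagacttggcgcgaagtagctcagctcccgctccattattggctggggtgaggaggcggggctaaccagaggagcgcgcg
Mcm2: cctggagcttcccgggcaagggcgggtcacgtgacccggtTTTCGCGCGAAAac
Mcm7: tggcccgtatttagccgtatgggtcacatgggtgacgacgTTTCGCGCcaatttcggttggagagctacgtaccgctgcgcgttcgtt
Gins1: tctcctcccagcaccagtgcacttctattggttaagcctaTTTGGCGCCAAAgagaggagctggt
The matches begin 213 bases before the start in Mcm5, 139 in Mcm6, 14 in Mcm2, 52 in Mcm7 and 25 in Gins1. Gins1, of the complex that joins the helicase, was 3.15-fold lower (9.43 against 11.09). Mcm7, shown for its sequence after its values were seen, was 2.20-fold lower (12.14 against 13.28). Mcm3 and Clspn hold the site 13 and 21 bases after the start.

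At the replication fork 14 of 32 genes were lower and 0 higher (median -0.94). Clspn, claspin, which links the fork to the checkpoint kinase, was 4.39-fold lower (5.39 against 7.52), with the 5 uM array at the floor and 6.09 under retinoic acid and forskolin. The histone chaperone Asf1b was 3.51-fold lower (9.33 against 11.14), Chaf1a, which loads new histones, 3.25-fold (7.93 against 9.63), and the flap endonuclease Fen1 2.39-fold (9.72 against 10.98). Pcna, the sliding clamp, lay within 2-fold at 13.33 against 13.92. Of 15 genes of deoxynucleotide synthesis 5 were lower and 0 higher (median -0.44). Tk1, thymidine kinase, was 2.81-fold lower (10.47 against 11.96), Tyms, thymidylate synthase, 2.39-fold (6.27 against 7.52) and the reductase subunit Rrm1 2.04-fold (11.78 against 12.81).

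Of 20 recombination and checkpoint genes 12 were lower and 0 higher (median -1.12). Bard1 was at 7.08 with KHS101 at 1.7 uM, 8.81 in DMSO, 5.69 at 5 uM and 7.64 in the retinoic acid and forskolin group, 3.32-fold lower. Brca1, its partner in a ubiquitin ligase, was 2.75-fold lower (7.49 against 8.95), and Brca2, a tumour suppressor gene of DNA repair, was at 7.09 against 7.45. Fancb, of the crosslink repair complex, was at the floor against 7.07, at least 4.20-fold lower. Of 58 kinetochore, spindle and mitotic kinase genes 44 were lower and 0 higher (median -1.17). Cdca2 was 3.56-fold lower (7.45 against 9.28), the kinesin Kif20b 3.48-fold (8.56 against 10.36), Spc24, of the NDC80 complex, 3.23-fold (8.80 against 10.49) and Birc5, survivin, 2.92-fold (10.19 against 11.73). The mitotic cyclins Ccnb1, Ccnb2 and Ccna2 were 2.10-fold, 2.29-fold and 2.17-fold lower. Their kinase Cdk1 was at 12.46 against 13.32, within 2-fold. Between the 1.7 and 5 uM arrays Cdca2 was at 7.45 and 7.30, Ccnb1 at 12.09 and 11.90, Ccna2 at 11.69 and 10.92, and Cenpu, a centromere protein, at 7.62 and 6.16.

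**Figure D4:**
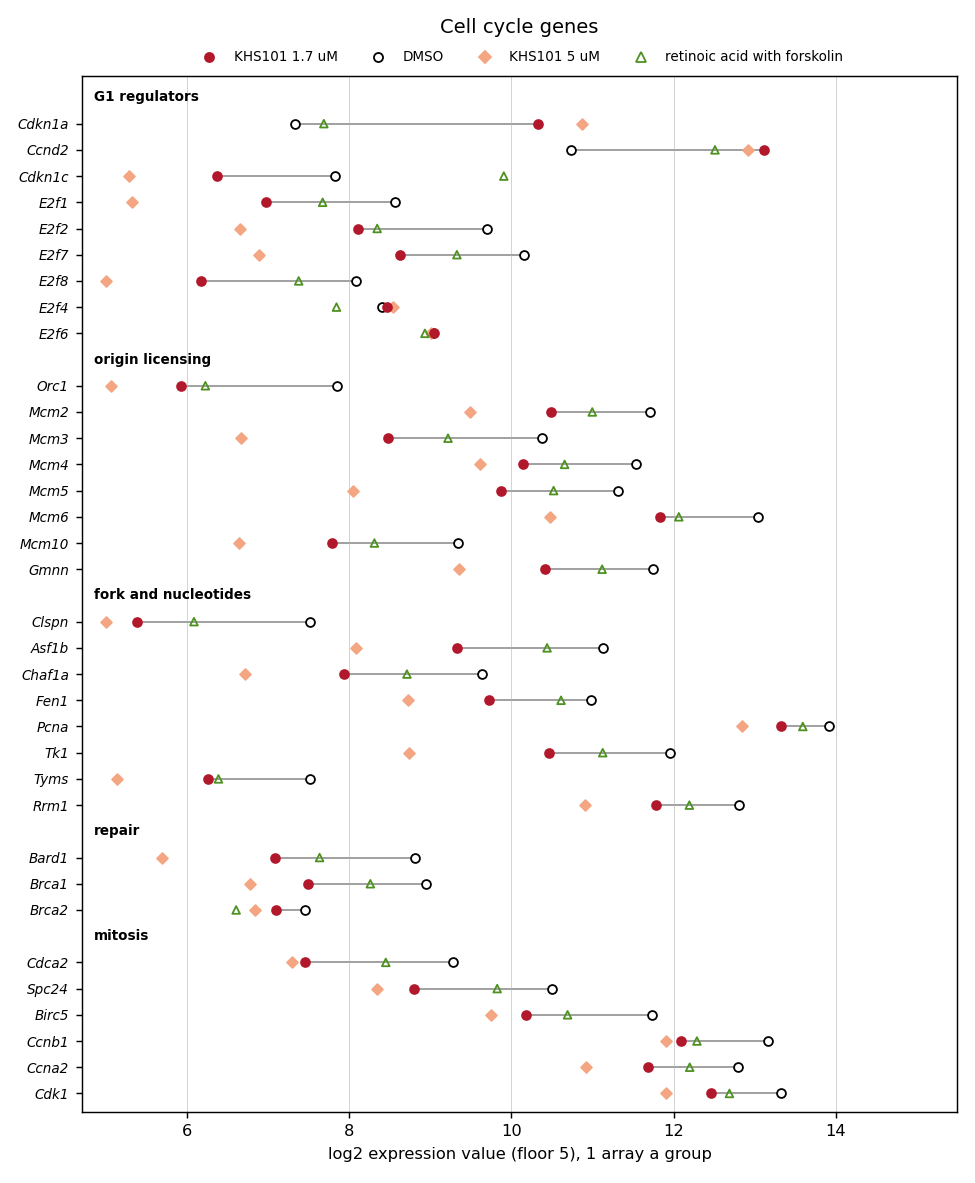
Log2 expression values (x axis, floor 5) of cell cycle genes on each array, 1 point an array, with a line joining the KHS101 1.7 uM array (filled circle) to DMSO (open circle). Cdkn1a and Ccnd2 were higher with KHS101, E2f4 and E2f6 lay close together, and the licensing, fork and mitotic genes had the 1.7 uM array below DMSO.

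Growth arrest and death genes were mostly on the higher side. Of 16 p53 targets and GADD45 genes 6 were higher and 0 lower (median 0.87). Gadd45b was at 8.32 against the floor, at least 10.0-fold higher, Gadd45a 2.90-fold (8.74 against 7.20) and Gadd45g 2.56-fold (7.08 against 5.72). Bbc3, the BH3-only protein PUMA, was 4.18-fold higher (8.40 against 6.34). Mdm2, the p53 ubiquitin ligase and itself a target, lay within 2-fold at 11.46 against 11.21. The BCL2 and death receptor list held calls both ways, 3 higher and 2 lower of 21. Casp6, an executioner caspase, was at 6.51 with KHS101 at 1.7 uM, 9.03 in DMSO, 6.48 at 5 uM and 8.69 in the retinoic acid and forskolin group, 5.75-fold lower. Bik, another BH3-only gene, was 2.63-fold lower (6.70 against 8.09) and Casp4 3.02-fold higher (12.87 against 11.28), while Mcl1 was at 12.06 and 12.05.

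Lineage genes did not differ as one group. Of 17 progenitor and radial glia genes 2 were higher and 2 lower (median -0.04). Sox3 was at 7.07 with KHS101 at 1.7 uM, 9.13 in DMSO, 6.82 at 5 uM and 8.80 in the retinoic acid and forskolin group, 4.16-fold lower. Fabp7, a fatty acid carrier of radial glia, was 2.31-fold lower, and Hes1, a Notch effector that represses neuronal genes, 2.89-fold higher (10.55 against 9.02). Of 14 Notch pathway genes 2 were higher and 0 lower, and Notch1 itself was at 9.45 against 10.29. The higher call of Dtx4 (6.80 against 5.78) ended with a floor of 6, averaged probe sets or quantile normalization. Of 18 oligodendrocyte lineage genes 5 were lower and 1 higher (median -0.58). Counted without the 2-fold threshold, 17 were below DMSO. The remaining gene was Cnksr3, 5.01-fold higher (9.06 against 6.73). Mbp, myelin basic protein, was at 10.54 with KHS101 at 1.7 uM, 12.07 in DMSO, 9.96 at 5 uM and 13.36 under retinoic acid and forskolin, 2.90-fold lower. Nkx2-2, a factor of this lineage, was 2.06-fold lower (10.64 against 11.68) and Enpp2, which makes lysophosphatidic acid, 2.02-fold (11.91 against 12.92). Ugt8, of myelin lipid synthesis, was 2.35-fold lower (8.97 against 10.21) on its brightest probe set and less than 2-fold on their mean. The factors Olig1, Olig2 and Sox10 were below DMSO but within 2-fold. Apod, a lipid carrier made by glia, was 3.62-fold lower (10.66 against 12.52), with 9.32 at 5 uM and 12.85 under retinoic acid and forskolin. In the astrocyte list 1 of 10 genes was higher, Cd44, the hyaluronan receptor, at 9.56-fold (9.40 against 6.14), and the list's median was -0.31.

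Neuronal genes were called at single members. None of 11 measured neuronal commitment genes was called (median 0.18), and 17 of the 28 on the array were at the floor on both arrays. Beside shares of 4.36% higher and 4.27% lower over all measured genes, 0 calls among 11 genes says little. Tubb3, neuronal tubulin, was at 9.59 against 8.85 and Prox1, a granule cell factor, at 8.92 against 8.34. Of 26 cytoskeleton and growth cone genes 4 were higher and 0 lower (median 0.33). Mapt, which encodes tau, was at 12.37 with KHS101 at 1.7 uM, 11.28 in DMSO, 12.35 at 5 uM and 11.87 in the retinoic acid and forskolin group, 2.13-fold higher. Eno2, neuronal enolase, was 3.44-fold higher (10.23 against 8.45). The kinase Dclk1 at 4.92-fold (10.46 against 8.17) and the ankyrin Ank2 at 2.48-fold (11.62 against 10.31) lost their calls over several probe sets: the log2 difference was 0.57 and 0.44 on the mean of all their probe sets and 0 on the median. Map2, the dendritic microtubule protein, was at 12.67 against 12.46.

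Synapse and transmitter genes went both ways, 4 higher and 4 lower of 26 (median -0.125). Gad1, which makes GABA, was at 7.04 with KHS101 at 1.7 uM and 7.95 at 5 uM and at the floor on both other arrays, at least 4.12-fold higher. Camk2b, a synaptic kinase subunit, was 2.58-fold higher (9.98 against 8.61), with 7.46 under retinoic acid and forskolin. C1ql1, a secreted organiser of synapses, was at 5.19 with KHS101 at 1.7 uM, 8.30 in DMSO and 8.22 under retinoic acid and forskolin, and at the floor at 5 uM; at 8.66-fold it was the lower gene with the widest difference above the floor on both arrays. Lrrc4, a postsynaptic adhesion protein, followed the same order (5.24 against 8.09, 7.20-fold lower). Nlgn2 and Nrxn2, adhesion partners at synapses, were 2.35-fold and 2.10-fold lower on their brightest probe sets and less than 2-fold lower on the mean. The higher calls of the synaptic genes Dlg4 (6.97 against 5.60) and Sv2b (10.46 against 8.91) also ended with averaged probe sets. That of Dlg4 ended with a floor of 6 as well.

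Among 8 measured channel genes with Kcn symbols, 3 were higher and 1 lower. Kcna1 was at 6.72 with KHS101 at 1.7 uM and at the floor on the other 3 arrays, at least 3.30-fold higher. Kcna2, of the same channel family, was 3.33-fold higher (7.33 against 5.59), with 6.19 at 5 uM and 7.84 under retinoic acid and forskolin. Kcnmb4, a subunit of calcium-activated channels, was 4.32-fold lower (6.97 against 9.09). The calls of Kcna1, with a floor of 6, and of Kcna2 and Kcnq5, with averaged probe sets, ended under those settings. Of 5 sodium and calcium channel genes, Scn3a was 2.40-fold lower (6.45 against 7.71) and Scn3b 2.08-fold higher (6.63 against 5.57), the latter lost with a floor of 6 or averaged probe sets.

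Of 12 measured retinoid genes 2 were higher and 1 lower. Dhrs3, which reduces retinaldehyde and is itself induced by retinoic acid, was at 10.68 with KHS101 at 1.7 uM, 5.74 in DMSO, 10.85 at 5 uM and 13.03 in the retinoic acid and forskolin group, 30.7-fold higher at 1.7 uM. Rarb, a receptor gene with a retinoic acid response element, was at 10.84 against 8.87, 3.93-fold higher, with 10.73 and 11.70 on the other arrays. For both, all 3 treated arrays were above DMSO. Cyp26b1, which degrades retinoic acid, was 3.66-fold lower (9.42 against 11.29), with 8.17 at 5 uM and 11.03 in the retinoic acid and forskolin group. The other 9 lay within 2-fold, Rarg at 9.62 against 9.03 and Rara at 6.39 against 6.80 among them. The comparisons with DMSO share that 1 array.

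Of 28 BMP and TGF-beta genes 1 was higher (3.57%) and 1 lower (3.57%), near the shares over all measured genes, 4.36% and 4.27%. Bmp4, a ligand that favours glial fates, was at 5.01 with KHS101 at 1.7 uM, 7.53 in DMSO and 8.15 under retinoic acid and forskolin, and at the floor at 5 uM; it was 5.72-fold lower at 1.7 uM. Bambi, a decoy receptor, was 2.13-fold higher (9.94 against 8.85). In the WNT list 1 of 19 genes was higher (5.26%) and 3 were lower. Lgr5, a receptor for R-spondins, was at the floor against 7.22, at least 4.66-fold lower, and Nkd2, an inhibitor of the pathway, 3.52-fold higher (8.84 against 7.03). Sorcs2, a sorting receptor that binds proneurotrophins, was at 9.08 with KHS101 at 1.7 uM, 5.25 in DMSO, 8.99 at 5 uM and 8.33 under retinoic acid and forskolin, 14.2-fold higher. Ntrk3, the neurotrophin-3 receptor, was 3.85-fold higher (6.96 against 5.02), a call lost with a floor of 6.

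Of 8 chemokine, cytokine and receptor genes 3 were lower and 1 higher. Ackr3, a scavenger of the chemokine Cxcl12, was at 5.44 with KHS101 at 1.7 uM, 8.41 in DMSO, the floor at 5 uM and 8.23 under retinoic acid and forskolin, 7.86-fold lower. Cxcl12 was at the floor on both KHS101 arrays and at 6.42 in DMSO, and its call was lost with a floor of 6. Ccl2 was 6.38-fold higher (11.09 against 8.41), with 10.97 at 5 uM and 13.88 under retinoic acid and forskolin. Of 17 interferon-inducible genes 3 were higher and 1 lower (median 0.03). Ifi27l2b was at 12.30 against 6.77, 46.1-fold higher, with 12.96 at 5 uM and 6.97 under retinoic acid and forskolin. Mx2, an antiviral GTPase, was at the floor on both KHS101 arrays against 7.87 in DMSO, at least 7.33-fold lower.

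Of 24 immediate early and KLF factors 5 were higher (20.8%) and 1 lower (4.17%, near the 4.27% of all measured genes), with a median of 0.20. Klf4 was at 8.58 with KHS101 at 1.7 uM and 10.15 at 5 uM and at the floor on both other arrays, at least 11.9-fold higher. Egr1 was 2.29-fold higher (7.97 against 6.77) and Egr2 at least 4.35-fold (7.12 against the floor); both were also above DMSO under retinoic acid and forskolin, at 7.97 and 8.97. Nr4a2 was at the floor against 6.99, but another of its probe sets differed by -0.19 and the call ended with a floor of 6. The higher calls of Fos (10.46 against 9.19) and Klf15 (7.68 against 5.59) ended when probe sets were averaged. Jun lay within 2-fold at 12.0025 against 11.67. Of 18 feedback genes of receptor tyrosine kinases 3 were higher and 0 lower. The higher call of Spred3 (6.85 against 5.75) ended with a floor of 6 or averaged probe sets. The phosphatase Dusp6, a readout of ERK activity, was at 12.93 against 12.90.

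**Figure D5:**
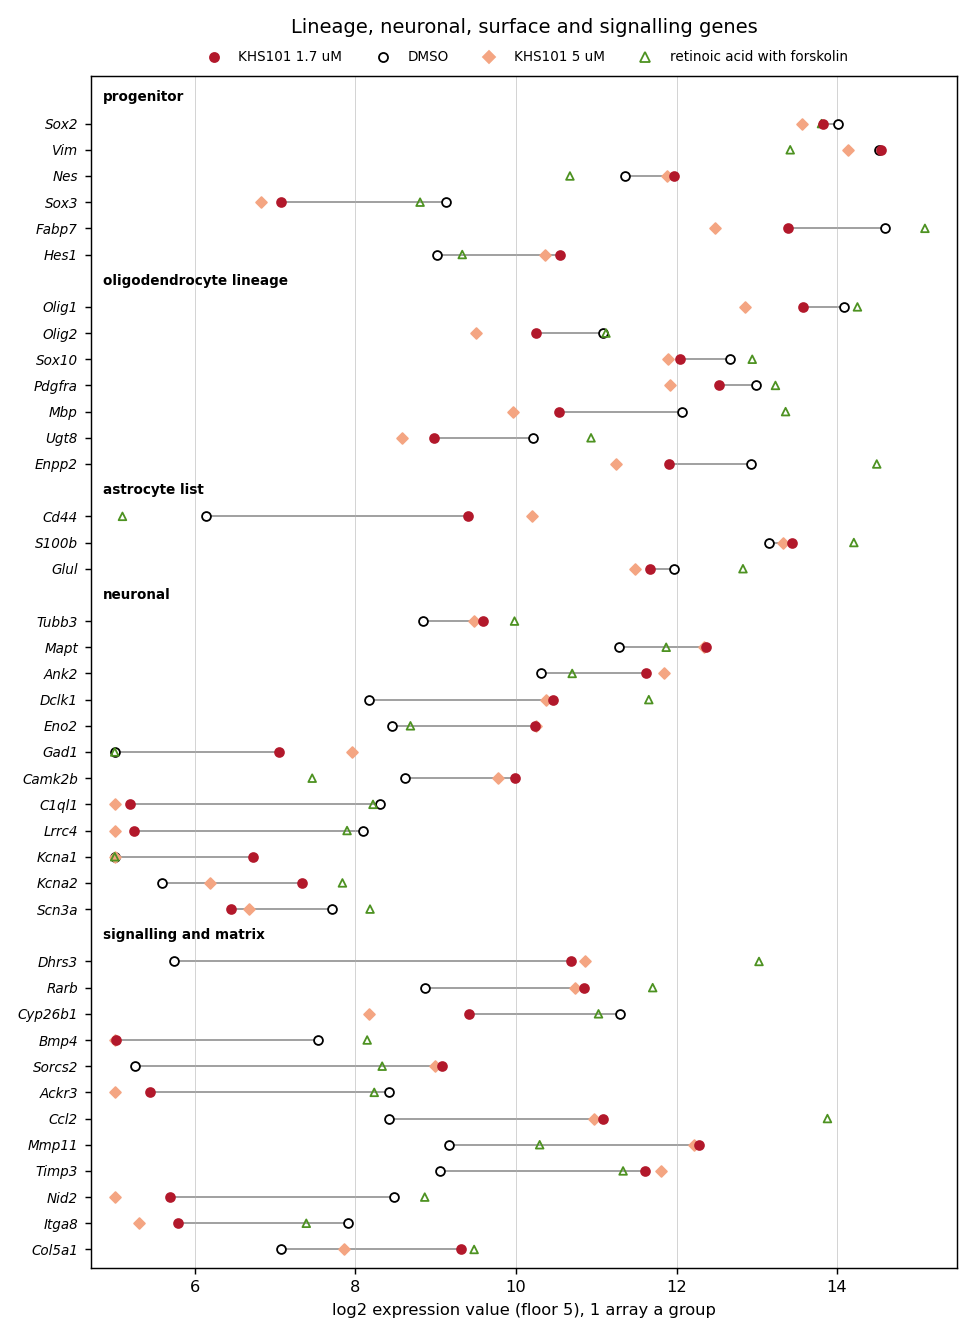
Log2 expression values (x axis, floor 5) of lineage, neuronal, signalling and matrix genes on each array, 1 point an array, with a line joining the KHS101 1.7 uM array (filled circle) to DMSO (open circle). Sox2 and Vim lay close on these arrays, Mbp was below DMSO at 10.54 against 12.07, and Dhrs3, Sorcs2 and Ccl2 were above DMSO on all 3 treated arrays.

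Matrix genes had more higher than lower calls: 11 of 36 matrix, basement membrane and integrin genes were higher and 4 lower (median 0.40). Mmp11, a matrix metalloproteinase, was at 12.28 with KHS101 at 1.7 uM, 9.17 in DMSO, 12.22 at 5 uM and 10.29 under retinoic acid and forskolin, 8.62-fold higher. Timp3, a tissue inhibitor of such enzymes, was 5.86-fold higher (11.61 against 9.06), and Tnr, the neural tenascin-R, 4.54-fold (8.42 against 6.24). Nid2, a basement membrane linker, was 6.88-fold lower (5.69 against 8.48) and Itga8, an integrin subunit, 4.34-fold lower (5.79 against 7.91). Postn, periostin, was at least 6.86-fold higher (7.78 against the floor) and Col5a1, a fibrillar collagen, 4.77-fold (9.32 against 7.07). Both stand in a fibroblast and meningeal list of which 3 of 7 measured genes were higher; the 5 defining fibroblast markers were at the floor on every array. Likewise Cd93 was at 8.92 against the floor, at least 15.1-fold higher, and Mcam 2.29-fold (12.16 against 10.97), while the 4 endothelial markers were at the floor on both arrays. P2ry12, the measured gene of the microglia list, was at the floor against 7.66, at least 6.32-fold lower, and the 5 microglial markers were at the floor. Of 23 axon guidance genes 3 were higher and 0 lower, with the receptor Epha4 5.56-fold higher (9.16 against 6.69) and the netrin receptor Unc5b 3.68-fold (10.18 against 8.30).

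The arrays of the 2 KHS101 concentrations lay within 2-fold of each other at most of the called genes. The share of all measured genes within 2-fold between these arrays is not given here. The counts below therefore cannot show whether called genes were closer than other genes. Of the 372 higher genes 334 lay within 2-fold of the 5 uM array, 28 were at least 2-fold below it and 10 at least 2-fold above it; of the 364 lower genes 300 lay within 2-fold, 64 were at least 2-fold above the 5 uM array and 0 below. The 10 higher genes at least 2-fold above the 5 uM array include Col5a1, at 9.32 against 7.86 at 5 uM, and Adamts9, a matrix protease, at 8.02 against 6.78. Dpp6, a potassium channel auxiliary subunit, was at 8.17 against 6.88 with DMSO at the floor. Other higher genes were above the 5 uM array by less than 2-fold and are not among these 10. Efhd1, a mitochondrial calcium-binding protein, was at 9.78 against 8.29, with 6.96 in DMSO. At the other end Hmox1 was at 9.46 with 1.7 uM and 11.83 with 5 uM, Srxn1 at 8.32 and 10.32, and Mcm5 at 9.87 and 8.05.

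Most called genes stand in none of the 54 lists: 249 of the 372 higher and 226 of the 364 lower. Among those with wide differences were Stac2, an adaptor of calcium channels, 8.90-fold higher (8.91 against 5.75), Fam13c 7.68-fold (10.49 against 7.55), Renbp, a renin-binding epimerase, 7.74-fold (8.46 against 5.51) and Pls1, an actin bundler, 7.55-fold (8.40 against 5.48). Nnmt, which methylates nicotinamide, was at least 7.75-fold higher (7.95 against the floor). Armh4 was 6.66-fold lower (7.81 against 10.55), with 6.44 at 5 uM and 10.92 under retinoic acid and forskolin, and Sytl2, a vesicle protein, 4.35-fold (6.29 against 8.41). Esco2, a cohesin acetyltransferase, and Chtf18, of a clamp loader, both work in S phase and were 3.65-fold (8.70 against 10.57) and 3.57-fold lower (7.02 against 8.85). Mia, at the floor against 6.85, and Rgr, at the floor against 6.98, lost their calls with a floor of 6.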

How the data were processed

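Each of the 4 groups was 1 Affymetrix array of total RNA. What the authors deposited is 1 log2 value for each of 31099 probe sets and array, and the scale is read from the values themselves. The submitters' processing notes list GCRMA and R 2.6.2 without saying what each did. Sorted by size, the KHS101 1.7 uM and DMSO columns differed by a median of 0.0315, so the arrays share almost one distribution and a shift common to every gene would not show. Of 31042 probe sets that are not controls, 20826 had 1 gene symbol, 436 several and 9780 none in the platform annotation; 20758 of the named ones matched the RefSeq gene table of GRCr8. Values below log2 = 5 were raised to 5, each gene was read from 1 probe set, the brightest on average across the 4 arrays, and the DMSO column was subtracted from the KHS101 1.7 uM column. No test was run.

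The genes and 54 lists were chosen with earlier results of these data known. Genes named are the 25 widest differences each way above the floor on both arrays, the 15 widest bounds each way, for each list its 8 widest differences and first 5 genes, the reference genes and cell type markers, the genes shown for promoters, and the 5 called genes whose other probe set differed most; genes at the 2-fold threshold are given as such. The text leaves some out for length. Alternatives were another or no floor, averaged probe sets, the median difference over a gene's probe sets, quantile normalization, centring, both arrays above the floor, and 1.5-fold or 3-fold thresholds. The 2-fold calls were checked on simulated data with wide differences planted in genes well above the floor. That check did not cover differences near 2-fold, bounds, gene lists, markers or promoter matches. Calculations used Python 3.11.15 with pandas 2.3.3 and numpy 2.4.6.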

Additional observations from a re-analysis of the deposited data

Results flagged for a closer look

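Probe sets without a single gene name entered no comparison above. Of 9780 unnamed probe sets 2482 were above the floor on 1 or both arrays, and 143 of these were higher (5.76%) and 111 lower (4.47%) with KHS101 at 1.7 uM, with a median of 0.01. They drew attention as a signal in data outside the named genes. The widest among them was an unnamed probe set at 9.39 with KHS101 and at the floor in DMSO, at least 21.0-fold higher. Another was at 10.22 against 6.90, 10.03-fold higher. On the lower side the widest was at 5.24 against 7.85, 6.10-fold lower. Of 284 measured probe sets that name several genes, 4 were higher and 12 lower.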

How the results depend on the processing

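The 372 higher and 364 lower genes numbered 403 and 384 with a floor of 4, 323 and 330 with a floor of 6, 450 and 400 with no floor, 288 and 329 with averaged probe sets, 292 and 332 with the median difference over probe sets, 363 and 374 after quantile normalization, and 311 and 345 with both arrays above the floor. At 1.5-fold 896 genes were higher and 903 lower. At 3-fold 146 were higher and 68 lower, so the share of higher genes among the called went from 50.5% to 68.2%. Of 236 called genes among the named ones, 46 lost the 2-fold call under 1 or more settings. The call was lost for 33 with the median difference over probe sets, 32 with averaged probe sets, 18 with a floor of 6 and 1 after quantile normalization. Requiring both arrays above the floor removes every bound, 61 higher and 19 lower over all called genes. Bounds removed in this way are not counted among the 46. No named gene past 2-fold changed direction; for 1 list the direction turned: the median difference, endothelial and pericyte, of 1.19 over 3 measured genes was -0.0408 without a floor, and the cause was not tested. No paired analysis was possible because each group has 1 array. Low signal limits genes near the floor, whose folds are bounds.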
